A study of Mus musculus with 4 samples.

Results

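The enzymes that modify collagen chains, the collagen chaperone Hsp47 and the enzymes that crosslink finished collagen were examined in pseudopodia and cell bodies of the mouse embryonic fibroblast line NIH/3T3. The set holds 10 genes chosen by symbol: the prolyl 4-hydroxylase alpha subunits P4ha1, P4ha2 and P4ha3, the lysyl hydroxylases Plod1, Plod2 and Plod3, the Hsp47 gene Serpinh1, and the lysyl oxidases Lox, Loxl1 and Loxl2. A probe set, the group of probes that reads 1 transcript on the array, counted when its only annotated symbol was one of these. By this rule 9 of the 10 genes had 16 probe sets, among 18193 genes and 34945 probe sets with a single symbol. Loxl2 had none of its own. Of the 16 probe sets, 12 passed the filter on dim values, and these represent 8 genes.

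Each compartment was read on 2 arrays, from total RNA. The cells carried no stated genetic change, were kept without serum on top of a membrane with pores, and met fibronectin only on its lower side for 1 h before fixation in 0.3% formaldehyde for 10 min. Each compartment was obtained by wiping the other off the membrane, and crosslinks were reversed at 70 °C for 45 min. Only this 1 cell line was used. The study's design text calls the samples independent, but the labels do not state whether replicates were separate cultures, so p-values reflect the variation among these 4 samples only and that variation may be technical.

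Collagen chains are made on the endoplasmic reticulum, where prolyl 4-hydroxylases add the hydroxyl groups that stabilise the triple helix and lysyl hydroxylases prepare lysines for sugars and crosslinks. Both enzyme families use iron, 2-oxoglutarate and vitamin C. Hsp47 binds the folded procollagen helix until it leaves the reticulum, and the secreted, copper-dependent lysyl oxidases crosslink collagen and elastin outside the cell. Fibroblasts are a main source of these proteins.

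Median intensities of the arrays lay between 40.5 and 45.6, and 30.5% to 34.8% of probe sets stood at the lowest deposited value, 20, which is only an upper bound. Log2 values of the 11320 tested genes correlated at 0.983 and 0.984 within a compartment and at 0.949 to 0.957 between compartments, across genes, which are not independent replicates. Of 14 fibroblast markers, 12 passed the filter and 2, Fap and Thy1, stood at 20 on all 4 arrays. Their summed intensity was 60139 to 61092 in pseudopodia and 77480 to 82517 in cell bodies. The summed intensity was 3154 to 3159 against 3508 to 4184 for 14 epithelial markers, 1224 to 1260 against 1349 to 1495 for 12 haematopoietic markers, and 233 to 305 against 225 to 257 for 9 endothelial markers. The keratin Krt14, the monocyte receptor Cd14 and the tight junction gene Cldn5 were the brightest of these 3 lists. Limma called 0 of their 14 genes that passed the filter, against 14.6% of all tested genes. Of the 14, 5 had an unadjusted p under 0.05, as had 3553 of all 11320 tested genes. Of these lists, Esrp1 and Krt18 of epithelium, Itgam of myeloid cells and Pecam1, Tie1, Emcn and Vwf of endothelium stood at 20 on all 4 arrays, while 8 of 14 epithelial, 5 of 12 haematopoietic and 1 of 9 endothelial markers passed the filter. Those that passed include Epcam, at 248 to 604 over the 4 arrays, Cldn3, at 215 to 356, Cdh1, at 110 to 211, and Krt8, at 96.5 to 165, of epithelium, and Lyz2, at 108 to 201, Csf1r, at 111 to 139, and Adgre1, at 51.0 to 68.2, of myeloid cells. For the Actb control, the 3' probe set stood above the 5' probe set by log2 0.56 and 0.65 in pseudopodia and 0.37 and 0.36 in cell bodies, and for the Gapdh control the same quantity was -0.07 and -0.07 against -0.10 and -0.10. The part of these differences in the results below was not tested. In bulk RNA of this kind an array gives a gene's share of the compartment's RNA. Both compartments came from the same cell line, so these sums do not count cells of a type. The values give no amount of RNA per cell.

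Messages for most of the tested collagen-modifying enzymes and for Hsp47 were lower in pseudopodia. Of the 8 genes tested, 6 fell: P4ha1, P4ha2, Plod1, Plod3, Serpinh1 and Loxl1, by limma at a Benjamini-Hochberg adjusted p under 0.05 over all 11320 genes. Of all tested genes 14.6% passed this test, made up of 8.69% lower and 5.92% higher in pseudopodia. None of the 8 rose, and the median log2 difference, pseudopodia minus cell bodies, was -0.69 for the 8 genes and -0.0020 for all genes. Plod2 and Lox did not pass. The difference was at least 2-fold for 3 of the 8, P4ha2, Plod1 and Plod3, against 5.59% of all tested genes that were called lower by that much. The arrays of the compartments did not overlap for 7 of the 8 genes, all 7 lower in pseudopodia, against 60.8% of all tested genes in either direction and 31.4% lower.

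**Figure D1:**
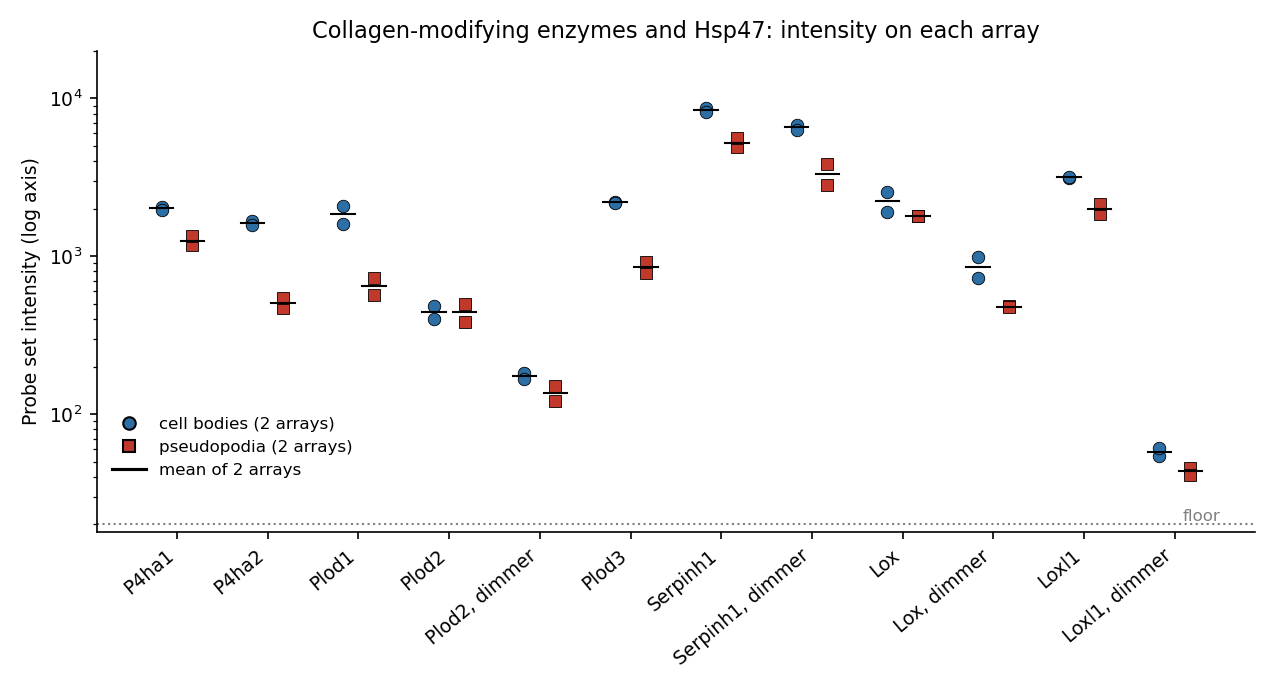
Intensity of the 12 probe sets above the filter on each array, on a log axis, with cell bodies as circles, pseudopodia as squares, and the mean of 2 arrays as a line. The compartments overlap only at the brighter probe set of Plod2, and the Serpinh1 arrays, between 4900 and 8657, stand far above the floor of 20.

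The bases upstream of the start site are shown for 4 genes that fell together, P4ha2, Plod1, Plod3 and Serpinh1, whose start in the table equals that of the RefSeq gene. The arrays measured RNA and not these regions. The sequences are RefSeq's for GRCm38.p6, 250 bases each up to the start site, read 5′ to 3′ on the strand of the gene. Of the 10 genes, 6 had such a window that was used here, and none was used for Plod2, Lox, Loxl1 and Loxl2. Capitals mark ACGTG, a form of the core of the site bound by hypoxia-inducible factors. Other forms of that core were not searched and are not marked. Capitals also mark GGGCGG, the GC box of Sp1, and TATAAA, the TATA box. Each marked motif was searched on both strands, so its complement is in capitals too.
P4ha2, chr11:54100674-54100923, plus strand: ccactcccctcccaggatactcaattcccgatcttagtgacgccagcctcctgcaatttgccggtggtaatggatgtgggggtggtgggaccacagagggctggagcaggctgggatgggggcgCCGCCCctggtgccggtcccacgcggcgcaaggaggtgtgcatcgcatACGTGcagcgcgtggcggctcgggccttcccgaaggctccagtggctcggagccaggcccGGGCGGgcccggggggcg
Plod1, chr4:147936777-147937026, minus strand: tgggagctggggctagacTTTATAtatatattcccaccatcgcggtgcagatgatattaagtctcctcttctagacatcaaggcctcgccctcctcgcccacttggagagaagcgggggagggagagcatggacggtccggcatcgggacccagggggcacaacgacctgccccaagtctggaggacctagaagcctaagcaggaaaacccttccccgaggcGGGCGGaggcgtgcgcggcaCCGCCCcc
Plod3, chr5:136986769-136987018, plus strand: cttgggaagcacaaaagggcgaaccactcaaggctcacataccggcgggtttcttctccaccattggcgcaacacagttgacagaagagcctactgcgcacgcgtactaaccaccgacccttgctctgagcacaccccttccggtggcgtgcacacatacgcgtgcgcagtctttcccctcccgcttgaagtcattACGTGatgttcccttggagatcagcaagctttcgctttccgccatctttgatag
Serpinh1, chr7:99353240-99353489, minus strand: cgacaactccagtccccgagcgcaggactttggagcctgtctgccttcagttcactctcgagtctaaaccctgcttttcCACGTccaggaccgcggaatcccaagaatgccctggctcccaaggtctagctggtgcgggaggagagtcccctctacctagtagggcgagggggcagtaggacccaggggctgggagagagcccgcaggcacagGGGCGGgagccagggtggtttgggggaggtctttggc
ACGTG began 78 bases before the start site in P4ha2, 54 in Plod3 and, as its complement, 171 in Serpinh1. It stood in 4 of the 6 windows, which also include P4ha1 and P4ha3, and in 16.6% of all 32851 windows of the table. GGGCGG stood in 5 of the 6 and in 32.7% of all windows, with 2 matches in the P4ha2 window. TATAAA stood in 1 of the 6, the Plod1 window, and in 12.4% of all windows. The Plod1 match was the complement and began 232 bases before the start site. The shares over all windows were not matched to the 6 in base composition. A match is a description of letters and says nothing of whether a factor binds there.

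Prolyl 4-hydroxylase needs an alpha subunit, which holds the catalytic site, and the beta subunit P4hb, which is a protein disulfide isomerase. P4ha2 read 469 and 540 in pseudopodia and 1661 and 1567 in cell bodies. Both pseudopodia arrays lay far under both cell body arrays. The difference was -1.68 on the log2 scale (SE 0.14, limma adjusted p = 0.0166), which is 3.20-fold higher in cell bodies and ranked 85 from the lowest among the 11320 tested genes. P4ha2 had this probe set only.

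P4ha1, the alpha subunit of the most widespread form of the enzyme, read 1172 and 1333 in pseudopodia and 2053 and 1975 in cell bodies. The compartments did not overlap, and the gap was smaller than for P4ha2. This gave a log2 difference of -0.69 (SE 0.14, limma adjusted p = 0.0395), or 1.61-fold. Its 95% interval ran from -1.05 to -0.33 and that of P4ha2 from -2.05 to -1.31. These intervals do not overlap, but the difference between the alpha subunits was not itself tested. The other probe set of P4ha1 lay under the filter, at 29.2 to 63.3 over the 4 arrays. P4ha3, the third alpha subunit, was dim, at 38.0 and 28.1 in pseudopodia and 43.4 and 37.0 in cell bodies. Its log2 difference was -0.29 with overlapping arrays, and its mean lay under the filter, so the fit did not include it.

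Of the lysyl hydroxylases, Plod1 and Plod3 fell and Plod2 did not pass the test. Plod1, which acts on lysines of the helix and is affected in a form of Ehlers-Danlos syndrome, read 566 and 723 in pseudopodia and 2087 and 1605 in cell bodies. The compartments stood well apart, although the cell body arrays differed more from each other than those of P4ha2. Its log2 difference was -1.51 (SE 0.21, limma adjusted p = 0.0189), or 2.86-fold. The second probe set of Plod1 lay under the filter, at 22.1 to 57.1, with a log2 difference of -0.03.

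Plod3, the lysyl hydroxylase that can also add sugars to hydroxylysine, read 784 and 918 in pseudopodia and 2216 and 2165 in cell bodies. The groups were as clearly separated as for Plod1, with less spread in cell bodies, and the log2 difference came to -1.37 (SE 0.15, limma adjusted p = 0.0166), or 2.58-fold. Plod3 had no other probe set.

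Plod2, the hydroxylase of the telopeptide lysines that serve in mature crosslinks, read 381 and 499 in pseudopodia and 483 and 400 in cell bodies. Each compartment had a higher and a lower array, and the groups overlapped fully. Its log2 difference was -0.01 (SE 0.20, limma adjusted p = 0.977), with a 95% interval from -0.52 to 0.50. The intervals of Plod1, from -2.05 to -0.98, and of Plod3, from -1.74 to -0.99, lay wholly below it, and the difference between the family members was not tested. A dimmer probe set of Plod2, from the same transcript accession, read 150 and 121 in pseudopodia and 182 and 166 in cell bodies. These arrays did not overlap, with a log2 difference of -0.37 (SE 0.18, limma adjusted p = 0.251 in the fit over all probe sets) and an interval from -0.83 to 0.09. The probe sets of Plod2 thus gave different point values, but their intervals overlapped and the difference between them was not tested.

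Serpinh1 encodes Hsp47, the chaperone specific to procollagen, and was the brightest of the 8 genes. Its brighter probe set read 4900 and 5585 in pseudopodia and 8657 and 8211 in cell bodies. The log2 difference was -0.69 (SE 0.14, limma adjusted p = 0.0403), or 1.61-fold. The second probe set read 2824 and 3815 against 6776 and 6294, with a log2 difference of -0.99 (SE 0.20, limma adjusted p = 0.0462 in the fit over all probe sets). Neither probe set overlapped between compartments. Genes this bright seldom lay as low. The 175 other tested genes with a mean at least as high had a median log2 difference of -0.08 and an SD of 0.15. Of them, 2 lay lower than Serpinh1. They were Col1a2, a chain of type I collagen that Hsp47 binds, and Sparc, a secreted collagen-binding glycoprotein; this comparison with bright genes was chosen after the values were seen.

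**Figure D2:**
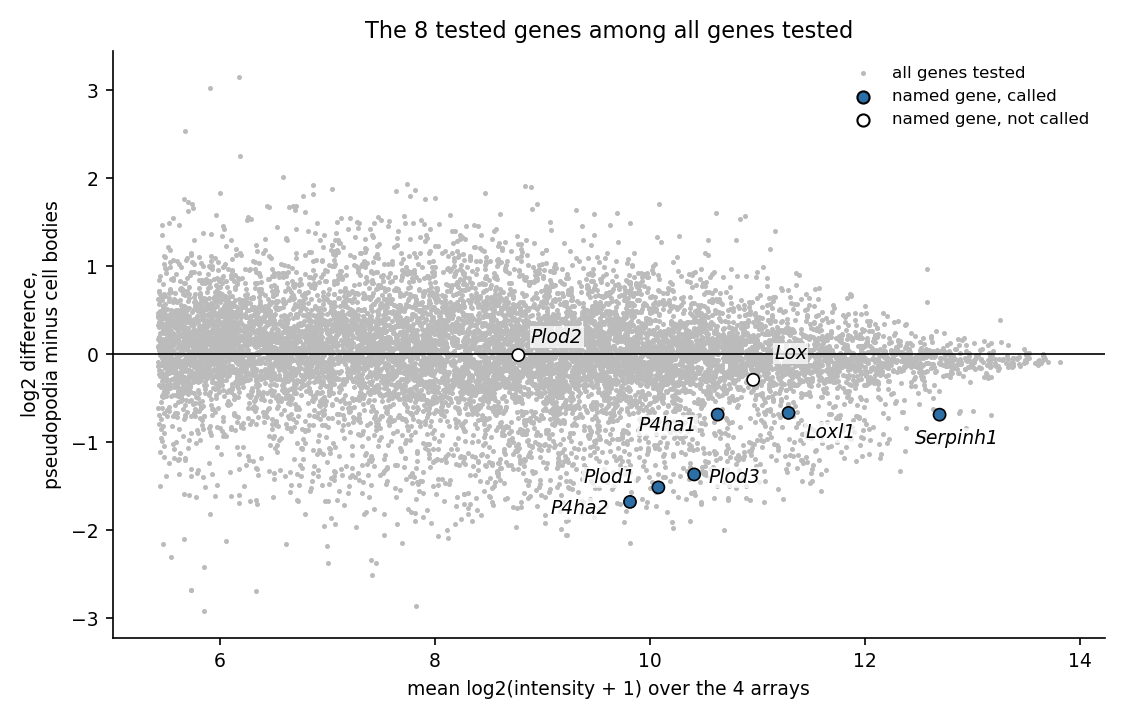
Log2 difference, pseudopodia minus cell bodies, against mean log2(intensity + 1) over the 4 arrays for all 11320 tested genes, shown in grey, with the 8 tested genes of the set marked. The spread of all genes narrows toward the bright end, where Serpinh1 lies at -0.69, and Plod2 sits at the centre of the cloud.

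Among the lysyl oxidases, Loxl1, which is needed for elastic fibres, read 1847 and 2140 in pseudopodia and 3146 and 3173 in cell bodies. The groups did not overlap, at a log2 difference of -0.67 (SE 0.14, limma adjusted p = 0.0439), or 1.59-fold. Its second probe set was dim, at 45.5 and 41.3 in pseudopodia and 54.5 and 61.0 in cell bodies, and had a log2 difference of -0.40 (SE 0.15, limma adjusted p = 0.167 in the fit over all probe sets).

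Lox, the founding lysyl oxidase, read 1800 and 1807 in pseudopodia and 2558 and 1907 in cell bodies. All cell body values were above those of pseudopodia, but one lay close to them. The log2 difference was -0.29 (SE 0.18, limma adjusted p = 0.355), with an interval from -0.77 to 0.19. A second probe set of the same accession read 481 and 478 in pseudopodia and 990 and 728 in cell bodies. There the log2 difference was -0.82 (SE 0.20, limma adjusted p = 0.0674 in the fit over all probe sets). The third probe set of Lox stood at 20 on 3 arrays and read 24.7 on the other.

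The only probe sets annotated to Loxl2 are shared with the gene model Gm21451, so they lay outside the rule. They were dim: one read 37.6 and 130 in pseudopodia and 20, the floor, and 53.4 in cell bodies, and the other 54.1 and 28.4 against 24.9 and 26.6. At the first the compartments overlapped, and its log2 difference of 1.07 had an interval from -0.87 to 3.01 (limma adjusted p = 0.407 in the fit over all probe sets). No statement on Loxl2 can be drawn from them.

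In the fit over all 22519 probe sets above the filter, 4 of the 12 fell, those of P4ha2, Plod1 and Plod3 and the dimmer one of Serpinh1, while 11.7% of all probe sets were called and 7.44% were called lower. Arrays did not overlap at 11 of the 12, against 59.6% of all probe sets. The brighter Serpinh1 probe set and those of P4ha1 and Loxl1 then had limma adjusted p-values of 0.0557, 0.0548 and 0.0605. All 12 had a log2 difference below 0, as had 50.4% of all probe sets tested. The 6 gene calls rested on the 4 arrays together: without any 1 of them limma called 0 of the 8 (6 or 7 at an unadjusted p under 0.05), and without the filter on dim values 0 (6). Under quantile normalization 3 remained called, P4ha2, Plod1 and Plod3. With the mean over a gene's probe sets, P4ha1 (adjusted p = 0.158) and Plod1 (0.157, with a log2 difference of -0.77) were lost.

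**Figure D3:**
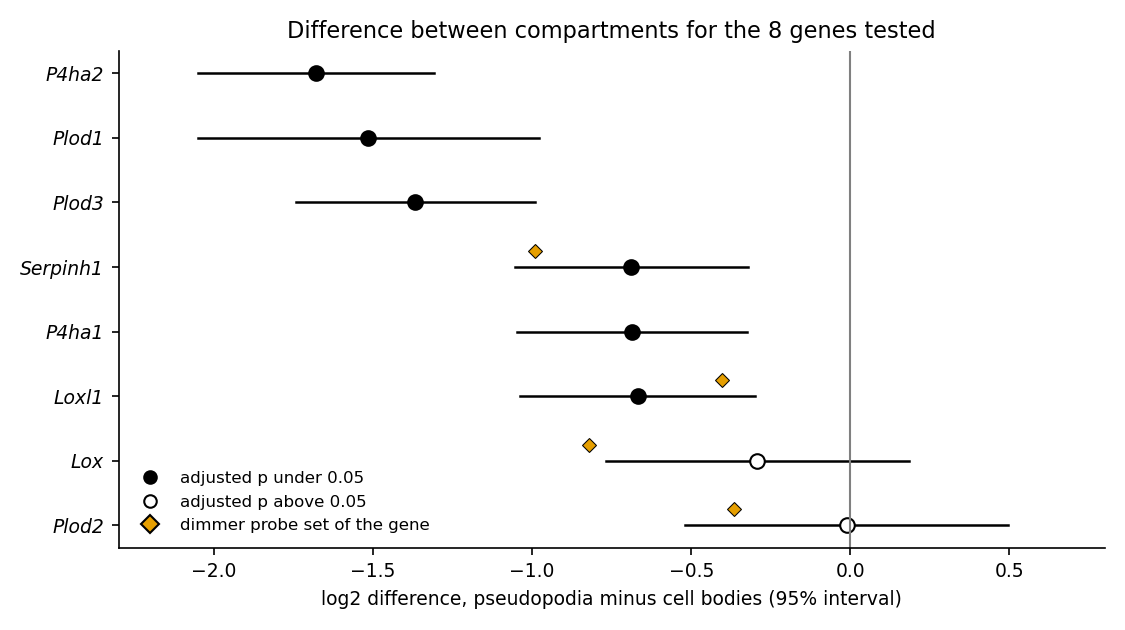
Log2 difference, pseudopodia minus cell bodies, with its 95% interval from limma for the 8 tested genes, where filled circles passed the adjusted p of 0.05 and diamonds give a gene's dimmer probe set without an interval. P4ha2, Plod1 and Plod3 lie between -1.68 and -1.37, P4ha1, Serpinh1 and Loxl1 between -0.69 and -0.67, and the intervals of Lox and Plod2 include 0.

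Other genes of collagen modification and folding lay on the same side. The list holds mostly proteins of the reticulum and also the secreted Sparc, Loxl3 and Loxl4. Of 17 listed genes, 14 were tested, 7 fell and none rose, against 8.69% of all genes called lower. The median log2 difference of the 14 was -0.83. This list, like the others, was chosen with earlier results of these data known, so its counts are a description only. P3h1, which hydroxylates a proline near the end of the collagen helix, fell by 1.90 (SE 0.29), and Crtap, its partner in the same complex, fell by 1.29 (SE 0.15). P3h1 read 110 and 122 in pseudopodia and 574 and 329 in cell bodies, while Crtap read 776 and 932 against 2134 and 2024. Both genes had no overlap between compartments. The third protein of that complex, the cyclophilin Ppib, named after its values were seen, had a log2 difference of -0.57 (SE 0.14, limma adjusted p = 0.0628). P4hb, the partner of the P4ha subunits, had a log2 difference of -0.64 (SE 0.14, limma adjusted p = 0.0441), close to that of P4ha1.

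Colgalt1, which adds galactose to the hydroxylysines made by the Plod enzymes, fell by 1.19 (SE 0.17), and P3h4, which assists lysyl hydroxylation, fell by 0.96 (SE 0.15). Loxl3, a further lysyl oxidase, fell by 1.42 (SE 0.25), from 990 and 1177 in cell bodies to 323 and 504 in pseudopodia. The family thus held called genes, Loxl1 and Loxl3, beside Lox, which did not pass. Sparc, the brightest gene of the list, fell by 0.84 (SE 0.14). All 14 differences were below 0, against 50.3% of all genes tested.

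Of the genes that carry procollagen out of the reticulum and trim it, 15 were tested, 2 fell and 1 rose, numbers near the shares of 8.69% lower and 5.92% higher over all genes. The median log2 difference of the 15 was -0.14. Bmp1, the protease that removes the carboxyl propeptide and also activates Lox, fell by 1.45 (SE 0.17), and Pcolce, its secreted enhancer and the brightest of the list, fell by 0.67 (SE 0.14). Klhl12, a cytosolic adaptor of the ubiquitin ligase that enlarges vesicles for procollagen, rose by 1.22 (SE 0.17), from 199 and 234 in cell bodies to 462 and 550 in pseudopodia. Its arrays did not overlap.

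A further list joined the fibrillar collagens, which are substrates of these enzymes, with elastin and other proteins tied to elastic fibres. It is thus not a list of substrates only. Of 20 tested, 9 fell and none rose, against 8.69% lower and 5.92% higher over all genes. The median log2 difference was -1.06. The called genes were the latent TGF-beta binding proteins Ltbp4 (-1.92), Ltbp1 (-1.44) and Ltbp2 (-1.29), the collagen chains Col5a2 (-1.37), Col1a1 (-1.33), Col5a1 (-1.26) and Col1a2 (-0.69), and the fibulins Fbln2 (-1.32) and Fbln5 (-1.31). Col1a2 was the brightest, and its other probe sets had log2 differences of -1.54 and -1.42 (limma adjusted p = 0.0245 and 0.0699 in the fit over all probe sets). Elastin, Eln, a substrate of Loxl1 named after its values were seen, had a log2 difference of 0.12 (SE 0.18, limma adjusted p = 0.696) at intensities of 133 to 175. Of 12 fibroblast markers tested, 4 fell and none rose, beside 8.69% lower and 5.92% higher over all genes. The called markers were Col1a1 and Col1a2, already counted among the fibrillar collagens, and the growth factor receptors Pdgfrb (-1.21) and Pdgfra (-1.18). Lgals1, the brightest, had a log2 difference of -0.09 and did not pass. Of the 12, 10 lay below 0, while Ddr2 (0.28) and Prrx1 (0.06) lay above.

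**Figure D4:**
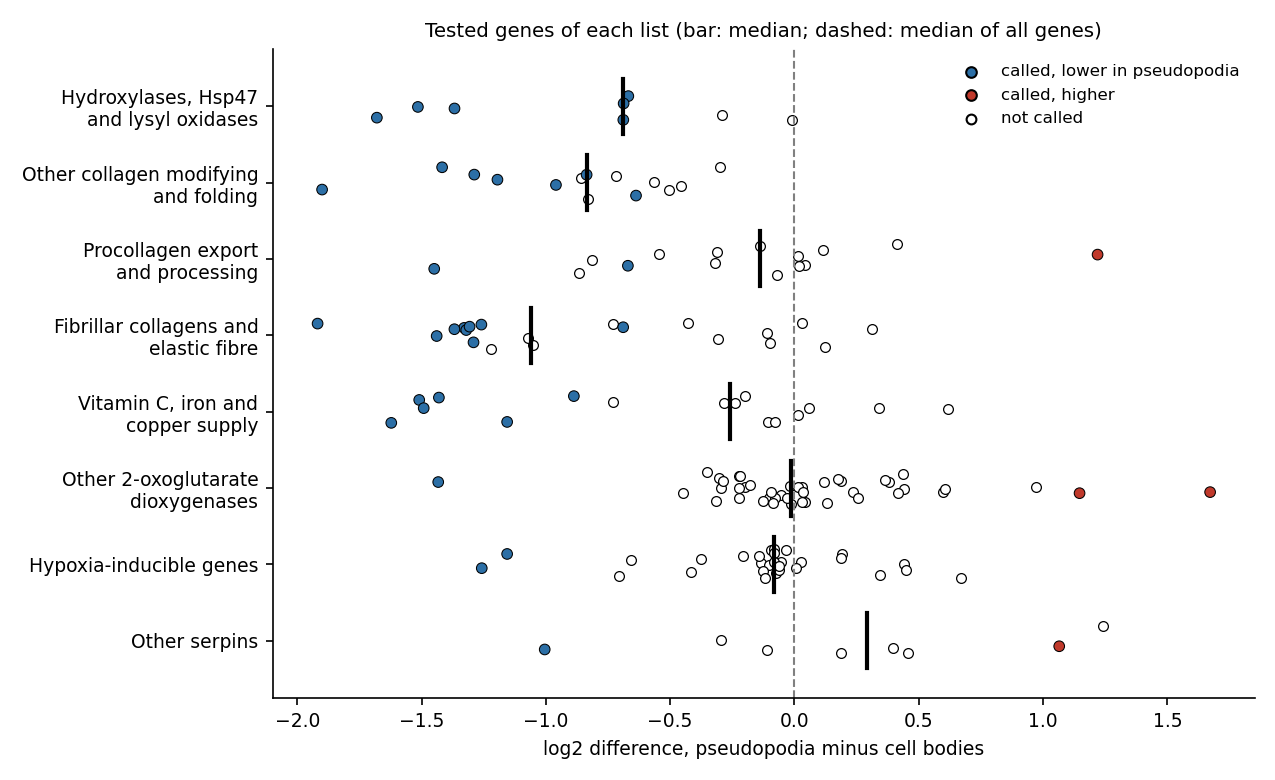
Log2 difference, pseudopodia minus cell bodies, of the tested genes in each list, with filled points for genes that passed the adjusted p of 0.05, a bar at the list's median and a dashed line at the median of all genes. The 8 genes of the set and the other collagen-modifying genes lie at or below 0, while the other 2-oxoglutarate dioxygenases have a median of -0.01.

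The hydroxylases share their chemistry with a large family of 2-oxoglutarate dioxygenases, most of which act outside the reticulum. Of 43 such genes tested, 2 rose and 1 fell, beside 14.6% called over all genes, and the median log2 difference was -0.01. The one that fell was Ogfod3, a little-studied member, at -1.43 (SE 0.20). The genes that rose were Tmlhe, the mitochondrial enzyme that starts carnitine synthesis, by 1.67 (SE 0.13), and Tyw5, which modifies transfer RNA, by 1.15 (SE 0.16). The prolyl hydroxylases of hypoxia-inducible factors, named after their values were seen, had log2 differences of 0.04 for Egln1, -0.30 for Egln2, the brightest of the list, and 0.44 for Egln3, with limma adjusted p-values of 0.894, 0.246 and 0.147. The asparaginyl hydroxylase Hif1an had -0.20 (adjusted p = 0.360). Asph, a hydroxylase of the reticulum in this list, also named after its values were seen, had -0.02 (limma adjusted p = 0.958). The difference between these genes and the collagen hydroxylases was not tested.

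Supply of the cofactors was examined through transporters and carriers of vitamin C and metals and enzymes of 2-oxoglutarate supply. Of 16 tested, 6 fell and none rose, against 8.69% lower and 5.92% higher over all genes, with a median of -0.26. The vitamin C transporter Slc23a2 fell by 1.62 (SE 0.13), from 879 and 949 in cell bodies to 285 and 307 in pseudopodia. The zinc transporter Slc39a13, whose loss causes a form of Ehlers-Danlos syndrome, fell by 1.51 (SE 0.15), and the iron transporters Slc11a2 and Slc39a14 fell by 1.49 and 1.43. Slc2a1, which also takes up oxidised vitamin C, fell by 1.16 (SE 0.14), and the copper transporter Slc31a1 fell by 0.89 (SE 0.18). Further transporters of the list did not pass, among them the copper transporters Atp7a, at a log2 difference of 0.34, Atp7b, at -0.20, and Slc31a2, at -0.73, and the citrate carrier Slc25a1, at -0.11. Fth1, the cytosolic ferritin heavy chain and the brightest of the list, had a log2 difference of 0.01. The enzymes of 2-oxoglutarate supply, named after their values were seen, did not pass. Idh1 lay higher in pseudopodia without overlap, at 0.62 (SE 0.20, limma adjusted p = 0.113). Idh2 had a log2 difference of -0.24 (SE 0.17, limma adjusted p = 0.404).

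Several of the enzymes, among them P4ha1, P4ha2, Plod2 and Lox, are known targets of hypoxia-inducible factors. Of 29 other such targets tested, 2 fell and none rose, against 8.69% of all genes called lower, with a median of -0.08. They were the secreted growth factor Vegfa, at -1.26 (SE 0.19), and Slc2a1, which the cofactor list shares. The glycolytic enzyme Ldha, the brightest of the list, had a log2 difference of -0.14. Among the other serpins, the family to which Hsp47 belongs by structure, 8 were tested, with a median of 0.29. Of the 8, 1 fell and 1 rose, beside 8.69% lower and 5.92% higher over all genes. The secreted Serpinf1, the brightest, fell by 1.00 (SE 0.17). Serpinb9, a granzyme inhibitor inside the cell, rose by 1.06 (SE 0.16).

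Of the 8 tested genes and the called genes of the other lists, 22 had a further probe set above the filter, 27 in all. Every one of these 27 differed in the direction of the gene's brightest probe set. They read the same RNA, and the genes of the other lists were picked as called, so this agreement is no independent support. Probe sets under the filter were left out, and no share over all genes was computed. Sizes varied: the second probe set of Colgalt1 had a log2 difference of -1.99 and that of Serpinf1 -2.20, each larger than at the brighter one. Others were smaller and did not pass, with log2 differences of -0.56 for Col1a1, -0.35 for Col5a2, -0.31 for Vegfa and -0.60 for Slc39a14 (limma adjusted p = 0.306, 0.323, 0.310 and 0.340 in the fit over all probe sets).

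As a description of profile, the tested genes nearest to the mean centred profile of the 6 called genes over the 4 arrays were Pigt, Smpd1, Pald1, Cers2 and Scarb1, at Euclidean distances of 0.025 to 0.046 on the log2 scale. Their log2 differences ran from -1.13 to -1.06. The members themselves lay at 0.27 for Plod3 to 0.58 for P4ha2 from that mean among the called genes, and at 0.85 for Lox and 1.10 for Plod2.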

How the data were processed

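The deposited values are linear intensities, 1 per probe set and array, with a floor of 20. The authors' summary of probes and scaling of these intensities were not given in the sources used here. Array records deposited as text (other values) list 1 chip lot, 1 scanner and 1 scan day, so no such batch could be fitted. The 64 control probe sets were left out. Values were taken as log2(intensity + 1), and folds are antilogs of differences on that scale. Each gene was represented by its brightest probe set with a single symbol; genes with a mean log2 under 5.42, the median of the 45037 other probe sets, were left out. The compartments were compared with limma 3.58.1 (R 4.3.3; two-sided, no covariate, 2 residual degrees of freedom) with Benjamini-Hochberg adjustment over all genes, and again over all probe sets. Every adjusted p comes from limma. An exact permutation test of 1 gene cannot go below 0.333 here and was not run. The fit was run on simulated data with the same spread for every gene. That run checked the code and not the calls near the threshold. Members and lists were chosen with earlier results of these data known; of 246 list entries, 228 matched a probe set. Named were all members and, per list, up to 8 called genes with the largest difference and the brightest gene; others named are marked as chosen after their values were seen or are given as counterexamples. Alternatives were another pseudocount (16), other filters, normalizations, variance priors and probe set choices, a replicate block, and each array left out.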

Additional observations from a re-analysis of the deposited data

How the results depend on the processing

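Direction held for P4ha1, P4ha2, Plod1, Plod3, Serpinh1, Lox and Loxl1 under all 13 alternatives; P4ha2 ranged from -1.78 to -1.58 on the log2 scale. Plod2 changed sign with quantile normalization (0.039), median centring (0.029), and without pseudopodia replicate 1 or cell body replicate 1; with 1 array left out it ran from -0.21 to 0.18. Without any 1 array limma called 0 genes (2797 to 2891 at an unadjusted p under 0.05, against 3553), 0 probe sets, 0 of the 8 member genes, 0 member probe sets and 0 of the 142 other listed genes (41 to 49). Without the filter on low values limma called 2 genes (3844 unadjusted), 73 probe sets, 0 member genes (6), 0 member probe sets (9) and 0 other listed genes (46), against 31 in the main setting. Quantile normalization left 3 member genes called. An intensity trend in the variance prior called 2564 genes, 4440 probe sets and 8 member probe sets. A pseudocount of 16 called 7 member probe sets and the stricter filter 8. With the replicate number as a block, limma called 2202 genes and 6 member genes. Deviations of same-numbered arrays correlated at 0.34, but the labels do not say what the number marks, so the numbers were not taken as pairs. With 2 arrays per compartment, signal near the floor limits what can be said of P4ha3, which entered the fit only without the filter, and of the probe sets that Loxl2 shares.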
